A study of Mus musculus with 9 samples.

Results

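Acute phase and stress-secreted proteins are mostly plasma-type proteins that cells make and release in inflammation, though Steap4 of the set below is a membrane protein. The set described here holds 10 genes, taken by symbol from a table of 40202 genes: the acid glycoproteins Orm1 and Orm2, the lipocalin Lcn2, the serum amyloid Saa3, the haemoglobin binder haptoglobin (Hp), the ferroxidase ceruloplasmin (Cp), the metalloreductase Steap4, and the serine protease inhibitors (serpins) Serpina3f, Serpina3g and Serpina3n. All 10 were present, and all 10 passed the filter on low counts, as did 25273 genes in all. They were measured by RNA sequencing of the retinal pigment epithelium (RPE), the pigmented layer behind the retina, in wild-type mice. Each of 3 groups gave 3 libraries: young controls (9 months old), aged controls (24 months old), and treated mice of the same 24 months whose last 6 months were under vutiglabridin, a small molecule. The labels name no strain, sex or batch, and they do not say whether each library is a separate animal, so errors and p-values measure the spread between these libraries only. The symbols were selected on the counts themselves, with the differences between all 3 groups already known. The values of the 10 genes in all 3 comparisons are therefore a description, and no p-value is given for them.

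In the acute phase response, cytokines such as interleukin 6, oncostatin M and interleukin 1 act through the transcription factors STAT3, C/EBP and NF-kB, mostly in the liver, to raise the output of these proteins. Several are also made outside the liver, by macrophages, fat cells, epithelia and glia. In the eye the iron-handling members are the best known: mice that lack ceruloplasmin and its membrane-bound relative hephaestin accumulate iron in the retina and RPE.

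Total counts per library ranged from 44196290 to 56797891. Levels are in CPM, read counts divided by library size after scaling by trimmed mean of M values, as mean ± SD with n = 3 per group, and log2 fold changes are given ± SE from edgeR. A gene passed the test when its adjusted p in edgeR's quasi-likelihood test, over all genes, was under 0.05. The RPE marker list was present throughout, with 10 of 10 genes at a mean of at least 1 CPM and a summed level of 17950 to 20030 CPM in young controls, 13680 to 16220 CPM in aged controls and 10460 to 16100 CPM in treated mice. Treated replicate 2 stood apart: its haemoglobin genes summed to 5131 CPM against 91.1 to 644.4 CPM elsewhere, and its stratified epithelium genes to 310.6 CPM against 2.346 to 52.02 CPM. In dissected tissue, fewer cells of a type and less RNA per cell cannot be told apart.

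All 10 genes had a mean above the young controls in both aged groups. In the fit over all genes, Orm1 and Serpina3f were called higher in aged than in young controls and the other 8 were not called. As the genes were selected on these comparisons, the calls of members, here and below, describe the fit and nothing is read from them. This holds also for calls kept or lost with a library left out. The calls with age were 2 of 10, where 1.48% of all genes tested were called higher and 0.202% lower. Libraries of the 2 groups did not overlap for 8 of the 10, the aged controls being higher, where this held for 13.2% of all genes and the reverse for 12.1%. The median log2 fold change of the 10 was 1.09, against -0.01 over all genes. Between treated and aged control mice the genes took different courses. Means of 8 were higher and means of Serpina3f and Serpina3g were lower, and edgeR called 0 of 10, where 4.34% of all genes were called, 2.37% as higher and 1.97% as lower. Libraries did not overlap for 5 of the 10, with 4 higher and 1 lower, where 14.7% of all genes lay higher and 17.5% lower. DESeq2 called 2 of the 10 in this comparison, Lcn2 as higher and Serpina3f as lower. Over all genes it called 3010, where edgeR called 1098. Against young controls, Orm1, Orm2, Lcn2 and Saa3 were higher in treated mice, 4 of 10, where 9.01% of all genes were called higher and 7.69% lower. Libraries did not overlap for 4 of the 10, all higher, where 15.9% of all genes lay higher and 17.3% lower. The comparisons share groups, so the 3 sets of values are not independent of each other.

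**Figure D1:**
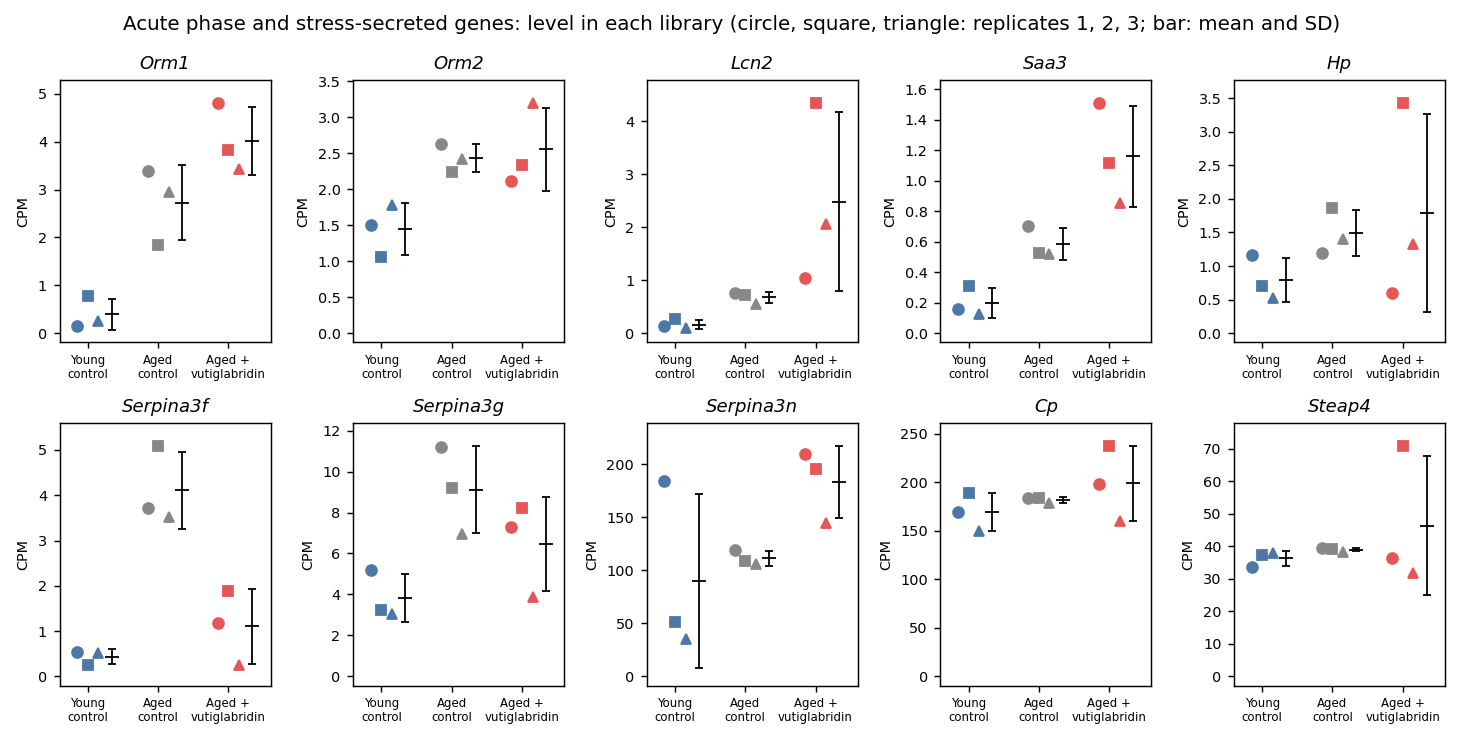
Level of each gene (CPM, linear axis) in the 9 libraries, by group. Circles, squares and triangles are replicates 1, 2 and 3, and the black bar is the mean with its SD. Orm1, Lcn2 and Saa3 step upward from young to aged to treated mice, Serpina3f peaks in aged controls, and treated replicate 2 holds the highest Lcn2, Hp, Cp and Steap4 levels.

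Orm1 and Orm2 encode orosomucoids, acidic plasma glycoproteins that carry lipophilic ligands and dampen immune cell activity. In the deposited coordinates Orm1 lies on chromosome 4 from 63262793 to 63266400 and Orm2 downstream of it from 63280543 to 63284114, both on the plus strand. Orm1 stood at 0.159, 0.770 and 0.250 CPM in the young libraries, 3.39, 1.85 and 2.95 CPM in aged controls, and 4.81, 3.82 and 3.42 CPM in treated mice. The 3 groups did not overlap, and the young level rested on 7 to 35 counts per library. Orm1 was higher in aged than in young controls by 2.80 ± 0.47 on the log2 scale and in treated than in young mice by 3.36 ± 0.48, both called, while the 0.55 ± 0.41 between treated and aged control mice was not. The first call was lost when young control 1, young control 3, aged control 1 or aged control 3 was left out, and the second was kept with any 1 library left out.

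Orm2 was flatter. It stood at 1.499, 1.06 and 1.78 CPM in young libraries, 2.63, 2.24 and 2.41 CPM in aged controls, and 2.12, 2.34 and 3.20 CPM in treated mice. Both aged groups lay above the young group and overlapped each other. The log2 fold change was 0.74 ± 0.24 with age, 0.07 ± 0.24 between treated and aged control mice, and 0.82 ± 0.24 between treated and young mice, the only called one. This call held in 2 of the 9 fits with 1 library left out, those without young control 3 or treated replicate 1. Without treated replicate 3 the second value was -0.12.

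The longest coding transcripts of both genes in the GENCODE M21 annotation have the same length, 775 bases. The deposited lengths, which are whole gene spans with introns, are close as well, at 3608 and 3572 bases. On that basis the counts of the 2 genes are set against each other. The count of Orm1 divided by that of Orm2 was 0.106, 0.729 and 0.140 in the young libraries. It was 1.29, 0.826 and 1.22 in aged controls and 2.27, 1.63 and 1.07 in treated mice, so the ratio in the young libraries lay below that of every aged library. Of the 50-base words of the Orm1 transcript, 20.4% also occur in transcripts of other genes, Orm2 first among them, and 22.7% of the Orm2 words are shared. A read or read pair that lies wholly within those stretches cannot be assigned to 1 gene alone. How the authors' counting treated such reads is not given in the sources used here, and their share of the counts was not measured. The word shares cover transcripts only, so reads from introns are left out of them.

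**Figure D2:**
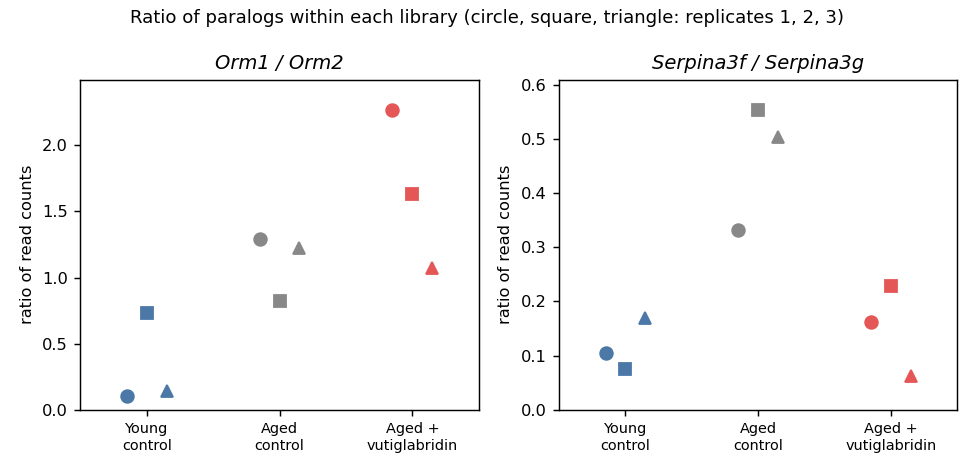
Ratio of read counts of Orm1 to Orm2 (left) and Serpina3f to Serpina3g (right) in each library, with circles, squares and triangles for replicates 1, 2 and 3. The Orm1 ratio is lowest in young mice (0.106 to 0.729) and the Serpina3f ratio is highest in aged controls (0.332 to 0.554).

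Lcn2 encodes lipocalin 2, which starves bacteria of iron by binding their siderophores and is released by neutrophils, epithelia and reactive glia. It lies on chromosome 2 from 32274649 to 32277751 on the minus strand. Its level was 0.136, 0.264 and 0.0892 CPM in young libraries, 0.758, 0.721 and 0.559 CPM in aged controls, and 1.05, 4.35 and 2.05 CPM in treated mice. The groups did not overlap, the young libraries holding 5 to 12 counts and the treated libraries 45 to 203. The treated libraries differed 4.16-fold among themselves, with replicate 2 the highest. Log2 fold changes were 2.07 ± 0.58 with age and 1.87 ± 0.48 between treated and aged control mice, neither of which was called, and 3.94 ± 0.57 between treated and young mice, which was called also with any 1 library left out. Without treated replicate 2 the value between treated and aged control mice was 1.19 and that with age, at 2.08, was called. Without treated replicate 1 or treated replicate 3 the value between treated and aged control mice was 2.23 or 1.99 and was called.

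Saa3 encodes a serum amyloid A protein that, in the mouse, is made mainly outside the liver by macrophages, fat cells and epithelia. It lies on chromosome 7 from 46361422 to 46365100 on the minus strand. It stood at 0.159, 0.308 and 0.125 CPM in young libraries, 0.705, 0.526 and 0.519 CPM in aged controls, and 1.51, 1.12 and 0.851 CPM in treated mice. The 3 groups again did not overlap, on 7 to 65 counts per library. The log2 fold changes were 1.57 ± 0.40 with age and 0.98 ± 0.35 between treated and aged control mice, neither of which was called, and 2.55 ± 0.39 between treated and young mice, which was. Of its transcript's 50-base words, 3.91% occur in transcripts of other genes, Malat1 among them.

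Lcn2, Saa3 and Orm1 followed each other closely. Over the 9 libraries, Pearson's r of log2 CPM was 0.953 for Orm1 with Saa3, 0.899 for Lcn2 with Saa3 and 0.862 for Lcn2 with Orm1, while pairs in all ranged from 0.014 to 0.953. These libraries share their groups, so the correlations describe these samples and carry no test.

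The promoters of Lcn2 and Saa3 are shown because both genes take the same course and differ in the letters they carry. They are RefSeq windows of 250 bases before to 50 bases after the start, build GRCm38.p6, at chr2:32387690-32387989 and chr7:46715627-46715926, both on the minus strand. This is not the build of the deposited coordinates. Capitals mark matches, on either strand, to 3 motifs: TTCNNNGAA, the palindrome bound by STAT factors, TTNNGNAA, a loose form of the C/EBP site, and a form of the NF-kB site that reads 3 G, any 2 bases, then TTTCC.
Lcn2: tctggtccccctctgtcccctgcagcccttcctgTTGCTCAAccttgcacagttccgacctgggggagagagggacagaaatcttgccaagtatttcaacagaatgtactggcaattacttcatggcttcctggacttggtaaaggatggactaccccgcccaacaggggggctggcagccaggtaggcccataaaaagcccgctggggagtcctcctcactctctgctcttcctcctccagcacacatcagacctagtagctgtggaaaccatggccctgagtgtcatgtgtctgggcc
Saa3: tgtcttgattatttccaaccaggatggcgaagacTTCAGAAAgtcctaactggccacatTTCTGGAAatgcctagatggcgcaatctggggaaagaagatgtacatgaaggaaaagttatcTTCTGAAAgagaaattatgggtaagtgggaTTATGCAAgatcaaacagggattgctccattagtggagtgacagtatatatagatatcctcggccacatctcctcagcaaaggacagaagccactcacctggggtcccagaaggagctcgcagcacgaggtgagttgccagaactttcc
Lcn2 held 1 C/EBP match, TTGCTCAA at -216 from the start. Saa3 held 4, among them TTATGCAA at -99. Neither window held either of the other 2 motifs. The C/EBP letters occur in 40.7% of the 32851 windows in that table, the STAT letters in 8.3% and the NF-kB letters in 1.63%, so a match describes the letters and not a used site. Windows were found for 8 members, the exceptions being Orm1 and Hp.

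Haptoglobin captures free haemoglobin for uptake by macrophages. Hp lies on chromosome 8 from 110301760 to 110305804 on the minus strand. It stood at 1.16, 0.704 and 0.517 CPM in young libraries, 1.20, 1.87 and 1.40 CPM in aged controls, and 0.605, 3.43 and 1.33 CPM in treated mice. The aged controls lay just above the young libraries, and the treated group spanned both, with a 5.67-fold gap between its lowest and highest library. No comparison was called, at 0.92 ± 0.55 with age, 0.27 ± 0.53 between treated and aged control mice and 1.18 ± 0.55 between treated and young mice. Without treated replicate 2, the library rich in haemoglobin RNA, the second value turned to -0.61 and the last was 0.32. The last was 1.596 and called without treated replicate 1.

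Ceruloplasmin oxidises iron so that transferrin can carry it away from cells. Cp lies on chromosome 3 from 20011097 to 20063914 on the plus strand and overlaps Hps3 on the other strand, whose reads may be counted with it. Cp stood at 170, 190 and 150 CPM in young libraries, 184, 184 and 179 CPM in aged controls, and 198, 238 and 161 CPM in treated mice. All 3 groups overlapped. The log2 fold changes were 0.10 ± 0.14 with age, 0.13 ± 0.14 between treated and aged control mice and 0.23 ± 0.14 between treated and young mice, and none was called. Without treated replicate 2 the second was -0.02 and the third 0.09. Without treated replicate 3 the third was 0.37 and called.

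Steap4 encodes a membrane metalloreductase that reduces iron and copper for uptake and is induced by inflammatory cytokines. It lies on chromosome 5 from 8010472 to 8032213 on the plus strand. Levels were 33.6, 37.4 and 37.9 CPM in young libraries, 39.4, 39.2 and 38.3 CPM in aged controls, and 36.5, 70.8 and 31.8 CPM in treated mice. Only treated replicate 2 stood away from the others, at 70.8 CPM against 31.8 to 39.4 CPM in the other 8 libraries. The log2 fold change between treated and aged control mice was 0.25 ± 0.25, and -0.19 without that library. That between treated and young mice was 0.35 ± 0.25, and -0.08 without it. The value with age was 0.10 ± 0.25, and none of the 3 was called.

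Serpina3f, Serpina3g and Serpina3n belong to a cluster of duplicated mouse genes related to human antichymotrypsin. In the mouse, the Serpina3g protein inhibits lysosomal cathepsins and protects activated T cells, and Serpina3n inhibits granzyme B and neutrophil proteases and is a marker of reactive astrocytes. The 3 genes lie on the plus strand of chromosome 12, Serpina3f from 104180803 to 104187388, Serpina3g from 104202406 to 104208198 and Serpina3n from 104372887 to 104380593. Of their transcripts' 50-base words, 10.7%, 16.0% and 6.9% occur in transcripts of other genes, mostly of the same cluster. Reads from such stretches may be assigned to the wrong copy, and their share of the counts was not measured.

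Serpina3f peaked in aged controls. It stood at 0.545, 0.242 and 0.517 CPM in young libraries, 3.72, 5.09 and 3.51 CPM in aged controls, and 1.19, 1.89 and 0.240 CPM in treated mice. The aged controls lay above all other libraries, and the treated and young groups overlapped. The difference with age was 3.23 ± 0.60 on the log2 scale. It was called, and the call was lost without any 1 of the young or aged control libraries. The values of -1.90 ± 0.56 between treated and aged control mice and 1.32 ± 0.61 between treated and young mice were not called. Without treated replicate 3 both were, at -1.41 and 1.82.

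Serpina3g took the same course at a smaller scale, with 5.18, 3.23 and 3.05 CPM in young libraries, 11.2, 9.18 and 6.96 CPM in aged controls, and 7.30, 8.23 and 3.88 CPM in treated mice. Aged controls lay above the young libraries and overlapped the treated ones. Its log2 fold changes of 1.26 ± 0.31 with age, -0.50 ± 0.30 between treated and aged control mice and 0.76 ± 0.31 between treated and young mice were not called. Without treated replicate 3 the first and the last were, at 1.27 and 1.04. Its log2 CPM correlated with that of Serpina3f at r = 0.894 over the 9 libraries. The count of Serpina3f relative to Serpina3g was 0.105, 0.0748 and 0.170 in young libraries, 0.332, 0.554 and 0.504 in aged controls, and 0.162, 0.229 and 0.0619 in treated mice, so the aged controls were the highest in the ratio too.

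Serpina3n followed neither. Young libraries held 184, 51.5 and 34.8 CPM, aged controls 119, 109 and 106 CPM, and treated mice 209, 196 and 145 CPM. Treated libraries lay above aged controls without overlap, but young control 1 lay among the treated libraries and differed 5.29-fold from young control 3. No comparison was called, at 0.30 ± 0.55 with age, 0.72 ± 0.55 between treated and aged control mice and 1.03 ± 0.56 between treated and young mice. Without young control 1 the first was 1.37 and the third 2.08, and both were then called. Without young control 3 the first was -0.08.

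The promoters of the 3 serpin genes are shown because Serpina3f and Serpina3g varied together over the libraries and Serpina3n took another course. They are RefSeq windows of build GRCm38.p6 on the plus strand, at chr12:104214294-104214593, chr12:104235897-104236196 and chr12:104406458-104406757, with capitals for the same 3 motifs.
Serpina3f: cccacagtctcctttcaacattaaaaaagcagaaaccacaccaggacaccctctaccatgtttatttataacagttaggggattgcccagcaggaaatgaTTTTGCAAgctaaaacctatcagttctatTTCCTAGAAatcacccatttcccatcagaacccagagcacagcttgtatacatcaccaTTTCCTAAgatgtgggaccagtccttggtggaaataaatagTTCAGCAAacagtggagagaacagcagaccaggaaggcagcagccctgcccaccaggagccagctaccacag
Serpina3g: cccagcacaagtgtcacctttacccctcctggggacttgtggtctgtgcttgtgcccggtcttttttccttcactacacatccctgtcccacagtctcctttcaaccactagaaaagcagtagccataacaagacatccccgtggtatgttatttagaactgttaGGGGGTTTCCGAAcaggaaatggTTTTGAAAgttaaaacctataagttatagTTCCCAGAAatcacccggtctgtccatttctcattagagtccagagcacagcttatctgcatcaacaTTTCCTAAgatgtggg
Serpina3n: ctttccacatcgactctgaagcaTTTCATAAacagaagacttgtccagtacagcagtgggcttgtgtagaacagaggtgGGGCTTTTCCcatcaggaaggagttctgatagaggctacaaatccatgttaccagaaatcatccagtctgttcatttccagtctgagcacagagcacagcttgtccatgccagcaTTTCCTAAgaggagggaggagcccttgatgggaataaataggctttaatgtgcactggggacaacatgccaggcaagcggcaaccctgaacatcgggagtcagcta
Serpina3f held the STAT letters TTCCTAGAA at -121 and Serpina3g held TTCCCAGAA at -33, while the Serpina3n window held none. Serpina3g and Serpina3n held the NF-kB letters, GGGGGTTTCC at -85 and GGGCTTTTCC at -171, and in Serpina3g these overlap the C/EBP match TTTCCGAA at -80. C/EBP letters were found in all 3 windows. Among the 8 members with a window, 3 held the STAT letters, 3 the NF-kB letters and 8 the C/EBP letters.

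**Figure D3:**
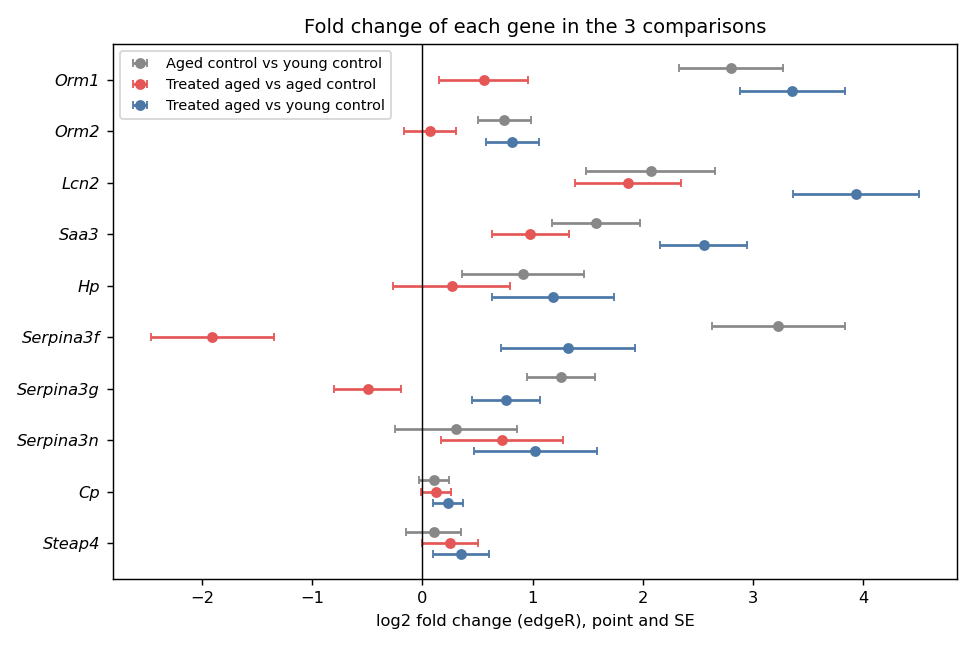
Log2 fold change of each gene (x axis) with its SE from edgeR, for aged against young controls (grey), treated against aged controls (red) and treated against young controls (blue). Grey and blue points lie right of 0 for all 10 genes, and red points lie left of 0 for Serpina3f (-1.90) and Serpina3g (-0.50).

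Other acute phase proteins came from a list of 51 genes, of which 50 were in the table and 27 passed the filter. This list and the lists below were chosen with earlier results of these data known. Their counts and adjusted p-values therefore describe these libraries and are no independent test. With age 0 of the 27 passed the test in edgeR, 7 had an unadjusted p under 0.05, and DESeq2 called 1. Of all 25273 genes tested in edgeR, 2945 had such an unadjusted p, and DESeq2 called 929 genes. The smallest p belonged to the clustered serpin genes Serpina3i and Serpina3m, at 1.40 ± 0.41 and 1.33 ± 0.47 on the log2 scale (adjusted p = 0.165 and 0.281 in edgeR). In treated against aged control mice 5 of 27 rose and none fell, where 2.37% of all genes were called higher and 1.97% lower, and the median log2 fold change was 0.74 against -0.01 over all genes. Lrg1, a secreted glycoprotein that promotes vessel growth, stood at 1.75, 1.33 and 1.40 CPM in aged controls and 4.70, 6.37 and 5.12 CPM in treated mice (1.85 ± 0.24, edgeR adjusted p = 0.00801). All 3 treated libraries lay above all others. Il1rn, the natural antagonist of the interleukin 1 receptor, rose from 2.70 ± 0.117 to 11.7 ± 2.44 CPM (2.11 ± 0.41, edgeR adjusted p = 0.0300).

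Cd14, the co-receptor for bacterial lipopolysaccharide, rose from 5.98 ± 0.698 to 47.4 ± 32.0 CPM (2.98 ± 0.56, edgeR adjusted p = 0.0329). Its treated libraries held 55.3, 74.6 and 12.2 CPM, all above the controls and far apart from each other. Serpina3m rose from 1.25 ± 0.274 to 4.34 ± 2.15 CPM (1.79 ± 0.43, edgeR adjusted p = 0.0487). With 1 library left out, the call of Lrg1 was kept in 7 of 9 fits, lost without aged control 2 or 3. The calls of Il1rn, Cd14 and Serpina3m were kept in 3, 2 and 1 of 9, each lost without any 1 of the aged controls and without young control 2. Leaving out treated replicate 3 gave 12 called genes in place of 5, and leaving out aged control 2 or aged control 3 gave 0. Over all genes, 4092 were called without treated replicate 3 and 25 without aged control 2, in place of 1098. Against young controls 10 of 27 were higher in treated mice and 1 was lower, where 9.01% of all genes were called higher and 7.69% lower. By smallest p the first 6 were Lrg1, Il1rn, Serpina3i, Serpina3m, Timp1 and Cd14, with log2 fold changes of 1.74 ± 0.24, 3.33 ± 0.44, 2.80 ± 0.40, 3.13 ± 0.47, 1.89 ± 0.30 and 3.31 ± 0.57 (adjusted p = 0.00306 to 0.0103 in edgeR). Timp1 encodes a secreted inhibitor of matrix metalloproteases. All 6 calls held with any 1 library left out, and that of Cd14 was lost without treated replicate 2 and young control 1 together (adjusted p = 0.0774 in edgeR).

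Of the 32 cytokines, receptors and transcription factors known to drive acute phase genes, all passed the filter. This list too was chosen with earlier results known, so its counts and adjusted p-values are a description. With age 0 of 32 passed the test in edgeR, 8 had an unadjusted p under 0.05, and DESeq2 called 2. Of all 25273 genes tested in edgeR, 2945 had such an unadjusted p, and DESeq2 called 929 genes. The smallest p belonged to Il6ra, the interleukin 6 receptor, at 0.64 ± 0.16, and Lifr, the receptor of leukaemia inhibitory factor, at -0.36 ± 0.10 (adjusted p = 0.0879 and 0.125 in edgeR). In treated against aged control mice 6 of 32 rose and none fell, where 2.37% of all genes were called higher and 1.97% lower, and the median log2 fold change was 0.45. They were Osm and Lif, cytokines of the interleukin 6 family, Il1r1, the interleukin 1 receptor, the transcription factor genes Stat3 and Cebpd, and Nfkbia, the inhibitor of NF-kB that NF-kB itself induces.

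Stat3 stood at 129, 130 and 131 CPM in aged controls and at 245, 305 and 165 CPM in treated mice (0.87 ± 0.18, edgeR adjusted p = 0.0301). Cebpd held 11.3, 13.7 and 13.1 CPM in aged controls and 61.9, 104 and 21.2 CPM in treated mice (2.296 ± 0.48, edgeR adjusted p = 0.0406). For both genes the treated libraries lay above the aged controls, and treated replicate 3 was the lowest of its group. Osm had a log2 fold change of 2.69 ± 0.27 (edgeR adjusted p = 0.00393) and kept its call with any 1 library left out. Il1r1 rose by 0.87 ± 0.17, Lif by 3.01 ± 0.71 and Nfkbia by 0.66 ± 0.16 (edgeR adjusted p = 0.0274, 0.0491 and 0.0491).

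Il6 was listed at 0 to 8 counts in each of the 6 control libraries. It held 847, 2414 and 18 counts in treated replicates 1, 2 and 3, and did not pass the test (edgeR adjusted p = 0.0566). Socs3, the feedback inhibitor that STAT3 induces, stood at 78.7, 127 and 13.0 CPM in treated mice against 9.26 to 10.7 CPM in aged controls (2.84 ± 0.70, edgeR adjusted p = 0.0634). Both passed once treated replicate 3 was left out, with adjusted p of 9.99e-05 and 1e-04 in edgeR. Without that library the count of risen genes in this list was 20, and it was 1 without treated replicate 1 or any 1 of the aged controls. The calls over all genes moved too, from 1098 to 4092 without treated replicate 3 and to 25 without aged control 2. The calls of Il1r1, Stat3, Cebpd, Lif and Nfkbia were kept in 5, 4, 1, 2 and 1 of those 9 fits, each lost without any 1 of the aged controls and without treated replicate 1.

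Against young controls 20 of the 32 were higher in treated mice and 2 were lower, where 9.01% of all genes were called higher and 7.69% lower, and the median log2 fold change was 0.71 against -0.01 over all genes. The 6 of smallest p were Osm at 3.52 ± 0.29, Il17ra at 1.29 ± 0.18, Stat3 at 1.20 ± 0.18, Il1r1 at 1.03 ± 0.17, Tnfrsf1a at 0.89 ± 0.16 and Nfkb2 at 0.67 ± 0.12 on the log2 scale (adjusted p = 0.000331 to 0.00828 in edgeR). Il17ra and Tnfrsf1a encode receptors of interleukin 17 and tumour necrosis factor, and Nfkb2 an NF-kB subunit. These 6 calls held with any 1 library left out. Those of Il6, Socs3 and Cebpd (adjusted p = 0.0258, 0.0240 and 0.0223 in edgeR) were lost without any 1 of the young controls. The calls of Il6 were lost also without aged control 1 or aged control 2, and those of Socs3 without treated replicate 2. Without young control 2 the list's count of 22 was 9, and the count over all genes went from 4222 to 1775.

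**Figure D4:**
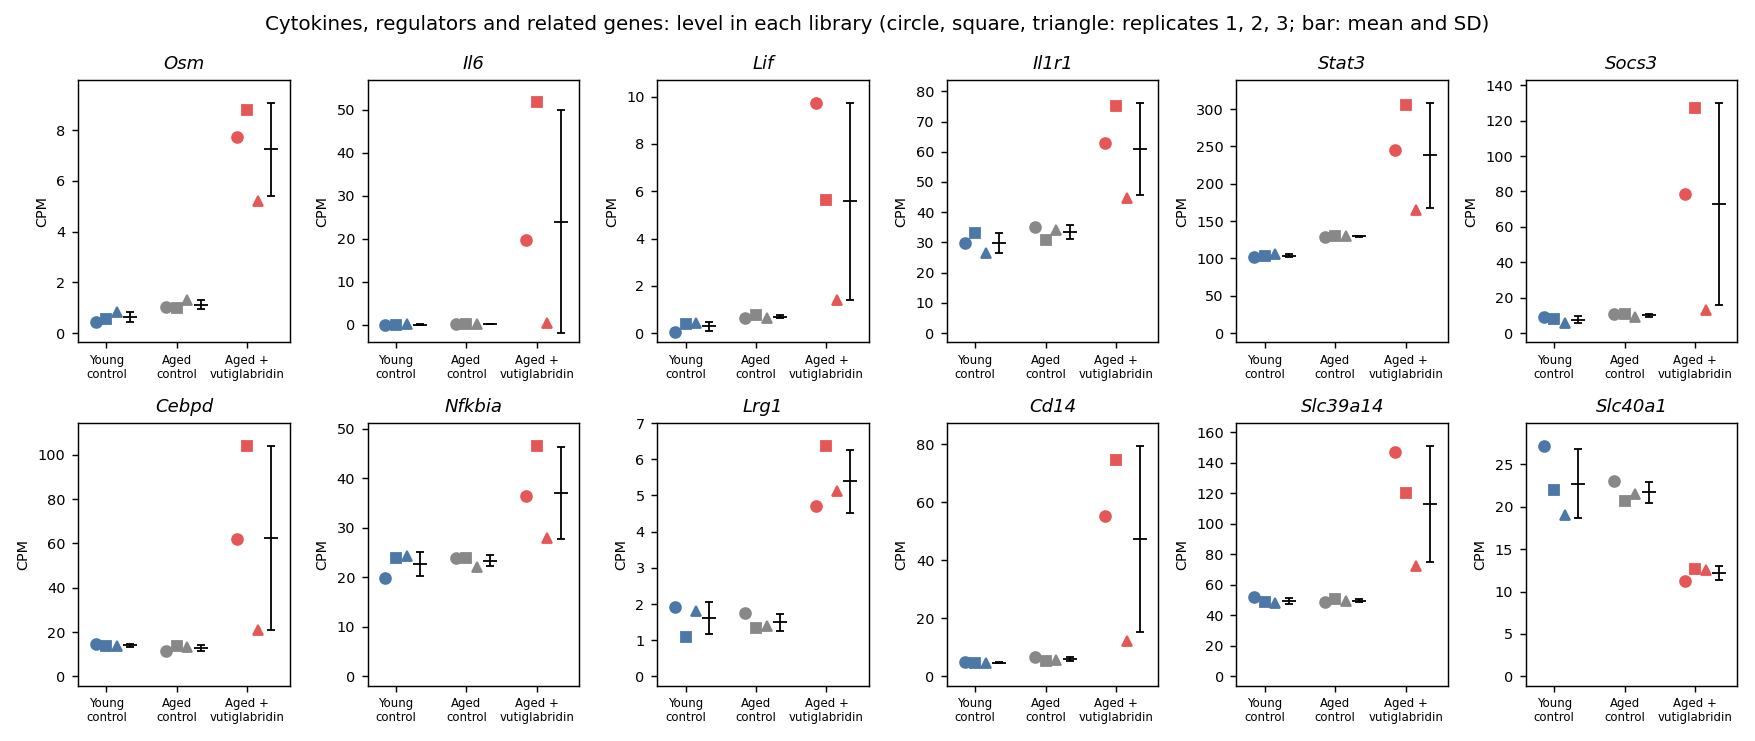
Level (CPM, linear axis) of 12 cytokine, regulator, acute phase and metal transport genes in the 9 libraries, with circles, squares and triangles for replicates 1, 2 and 3 and bars for the mean and SD. Treated libraries lie above the aged controls in 11 panels, with replicate 3 the lowest of the treated libraries in 10 of them, and below them for Slc40a1 (11.2 to 12.7 CPM).

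Receptors, target proteases and partners of the 10 proteins, with genes of iron and copper handling, made a list of 41 genes. Of these, 37 passed the filter. The same limit on the choice of the list applies. With age 1 of 37 rose and none fell, a share close to the 1.48% of all genes called higher. It was Fth1, the heavy chain of the iron store ferritin, which went from 242, 350 and 288 CPM in young libraries to 465, 463 and 472 CPM in aged controls (0.67 ± 0.14, edgeR adjusted p = 0.0481). The groups did not overlap, but the call held in only 4 of 9 fits with 1 library left out, and not in any fit without an aged control, young control 1 or young control 3. Cd36, a scavenger receptor that binds serum amyloid A, had 0.40 ± 0.10 (edgeR adjusted p = 0.0826).

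In treated against aged control mice 1 of the 37 rose and 1 fell, shares close to the 2.37% of all genes called higher and the 1.97% called lower. Slc40a1, ferroportin, the iron exporter that works with ceruloplasmin and hephaestin, fell from 23.1, 20.7 and 21.5 CPM to 11.2, 12.7 and 12.6 CPM (-0.84 ± 0.13, edgeR adjusted p = 0.0167). Its treated libraries lay below all 6 controls. Slc39a14, a zinc and iron importer that interleukin 6 induces in liver, rose from 48.9, 50.8 and 49.5 CPM to 147, 120 and 72.2 CPM (1.19 ± 0.20, edgeR adjusted p = 0.0221). Heph, the hephaestin gene, stood at 66.6 ± 2.81 CPM in aged controls and 54.3 ± 4.61 CPM in treated mice (-0.29 ± 0.10, edgeR adjusted p = 0.108). Both calls were lost without any 1 of the aged controls, and that of Slc39a14 also without treated replicate 2. Leaving out treated replicate 3 gave 7 called genes in this list. The calls over all genes went from 1098 to 4092 in the same fit.

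Against young controls 8 of the 37 were higher in treated mice and 6 were lower, where 9.01% of all genes were called higher and 7.69% lower. Slc40a1 was lower by -0.90 ± 0.13 and Heph by -0.54 ± 0.10 on the log2 scale (adjusted p = 0.00378 and 0.00830 in edgeR), Heph going from 89.1, 75.5 and 72.6 CPM to 59.4, 52.9 and 50.5 CPM. Higher were Cd36 at 0.63 ± 0.10, Fth1 at 0.92 ± 0.14, Slc39a14 at 1.19 ± 0.20 and Hmox1, the haem-degrading oxygenase, at 0.91 ± 0.18 (adjusted p = 0.00462, 0.00476, 0.00711 and 0.0102 in edgeR). All 6 calls held with any 1 library left out, and that of Slc39a14 was lost without treated replicate 2 and young control 1 together (adjusted p = 0.0703 in edgeR). Without young control 1 the count of 14 was 8. Over all genes 4222 were called, and 1775 to 6086 with 1 library left out.

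The markers of cells that can make such proteins, and of other cells, varied with the groups as well. Of the macrophage and microglia list 12 of 12 genes had a mean of at least 1 CPM. With age 6 of them rose, where 1.48% of all genes were called higher. In treated against aged control mice 1 fell, where 1.97% of all genes were called lower, and none rose. The summed level of the list was 557.3 to 714.1 CPM in young controls and 946 to 1055 CPM in aged controls. It was 810.2 to 1186 CPM in treated mice, the highest being treated replicate 2. Of the lymphocyte list 2 of 10 had such a mean. Of its genes 4 rose with age, where 1.48% of all genes were called higher. In treated against aged control mice 3 fell, where 1.97% of all genes were called lower, and none rose. The sums were 6.29 to 8.334, 12.31 to 14.85 and 9.931 to 10.47 CPM, highest in aged controls as for Serpina3f. Single genes differed between aged control and treated mice. Gzma averaged 1.02 and 0.144 CPM and Ms4a1 0.824 and 0.134 CPM. The T cell genes Cd3e, at 0.853 and 0.875 CPM, and Trac, at 0.913 and 0.905 CPM, changed little, and Cd3d averaged 0.605 and 0.469 CPM. Of the 10 lymphocyte genes 1, Cd3e, had a log2 fold change above 0 between treated and aged control mice. The median of the list was -0.58. Of the neutrophil list 3 of 12 had a mean of at least 1 CPM, with sums of 8.204 to 13.48, 15.8 to 17.14 and 10.98 to 24.55 CPM. Csf3r made up most of the control sums, at 7.76 ± 1.47, 11.4 ± 0.627 and 6.81 ± 1.19 CPM in young, aged control and treated mice. In treated against aged control mice it fell, where 1.97% of all genes were called lower. In that comparison 7 of the 8 genes that passed the filter had log2 fold changes above 0. The neutrophil gene Ly6g was at 0 in 8 of the 9 libraries and at 0.0233 CPM in treated replicate 1. Of the adipocyte list 2 of 10 had such a mean, Plin4 and Lipe. The sums were 42.77 to 63.38, 54.2 to 55.51 and 49.62 to 60.45 CPM. Plin4 and Lipe made up most of them, averaging 32.1, 35.6 and 35.6 CPM and 17.2, 18.5 and 16.6 CPM in the 3 groups. Adipoq, which encodes the fat cell hormone adiponectin, stood at 0 to 0.214 CPM. Of the hepatocyte list 2 of 10 had a mean of at least 1 CPM, and Alb, the albumin gene, stood at 0.0858 to 0.250 CPM. The glial gene Gfap stood at 12.8 CPM in treated replicate 2 and at 20.3 to 60.1 CPM elsewhere. Hbb-bs, a beta globin gene, was at 2274 CPM in that library and at most 268 CPM elsewhere. Krt5, a keratin of stratified epithelium, was at 62.8 CPM in that library, 13.0 CPM in treated replicate 3, 5.43 CPM in aged control 3 and at most 0.123 CPM in the other 6. The part of these cells in the levels of the 10 genes was not tested.

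**Figure D5:**
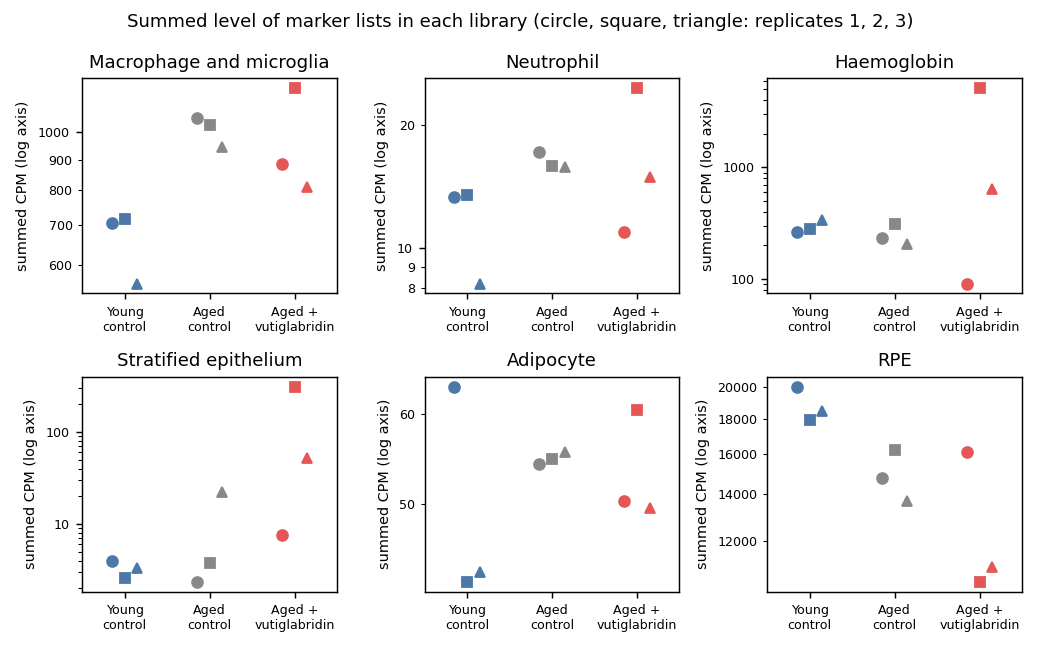
Summed level (CPM, log axis) of 6 marker lists in each library, with circles, squares and triangles for replicates 1, 2 and 3. The adipocyte sums are mostly Plin4 and Lipe. Macrophage and microglia genes lie higher in all aged libraries (810.2 to 1186 CPM) than in young ones (557.3 to 714.1 CPM), and treated replicate 2 is the highest for haemoglobin and stratified epithelium.

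Among 19487 other genes with a mean of at least 1 CPM, those most like each member were taken by Pearson's r of log2 CPM over the 9 libraries, as a description. Orm1 was nearest to Mpeg1, the macrophage gene of perforin-2 (r = 0.993), Flvcr1, a haem and choline transporter (0.990), and Laptm5, a lysosomal protein of blood cells (0.985). Saa3 was nearest to Cd300lf, a myeloid surface receptor (0.989), Plekho1 (0.989) and Dock10 (0.986). Lcn2 was nearest to Icam1, an adhesion molecule (0.989), Myo3b (0.988) and AI504432 (0.975). These 3 members thus had neighbours above 0.97 each.

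Serpina3f was nearest to Iigp1, an interferon-inducible GTPase (r = 0.956), Slc28a2 (0.955) and F830016B08Rik (0.950). Serpina3g was nearest to Ly6a, an interferon-inducible surface protein (0.948), Gm28068 (0.941) and Patl2 (0.937). Serpina3n was nearest to Adat2 (0.942), Vim, which encodes the intermediate filament vimentin (0.928), and Ccnb2, a cyclin (0.926). The 3 serpin genes had no gene in common among these neighbours.

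Cp was nearest to Cmpk1 (r = 0.988), Gm36476 (0.967) and Arpc5 (0.958). Hp was nearest to Rusc1 (0.972), Wwp2 (0.957) and Pilra (0.936), and Steap4 to Riok1 (0.975), Trim16 (0.964) and Dnah12 (0.954). Orm2 was nearest to Gm38903 (0.960), Gm39299 (0.954) and Marchf1 (0.938). The mean standardised profile of all 10 members was nearest to Adamdec1, a metalloprotease-like gene of macrophages (0.991), then to the complement genes C1s1 (0.984) and C3 (0.981), and to Cd93 (0.980), Zmynd15 (0.974), Rnase4 (0.974), Metrnl (0.973), C1s2 (0.973), Nfkbie (0.971) and Cmtm3 (0.969).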

How the data were processed

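RNA from the RPE of 9 samples in 3 groups was sequenced from stranded total RNA libraries, per the labels' protocols. Per the submitters' processing notes, the authors used Bowtie2 2.3.4.1, featureCounts 1.6.0 and DESeq2, with GRCm38 as the genome build. The table's chromosome accession versions are those of GRCm39, and 0 of the 10 members have the same start in a GRCm38.p6 gene table, so coordinates are given as deposited. The table holds raw counts per gene, made by the authors, and FPKM values, which the authors derived from the counts and from the whole span of each gene, introns included (largest relative difference 7.9e-13). The deposited FPKM values were not tested. The deposited biotypes were not used.

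Counts were filtered with filterByExpr, scaled by TMM and fitted for all 9 libraries without covariates by the quasi-likelihood test of edgeR 4.0.16, robust, in R 4.3.3, with Benjamini-Hochberg adjustment over all 25273 genes kept. Correlations used log2 CPM with a prior count of 2. Data were simulated with 100 genes changed by 2 and 100 by 1 on the log2 scale between aged and young controls. Over 24952 genes tested, the fit recovered 99% and 69% of them and called 9 other genes. The changed genes had a mean of at least 1 CPM, the spread was the fit's own estimate, and no library stood apart. These shares therefore do not extend to genes as low as Saa3, at 0.197 and 0.584 CPM in young and aged controls. Members and lists were chosen with earlier results of these data known. Every member was named. Of the other lists, up to 6 called genes of smallest p were named per comparison, and the 2 of smallest p where fewer than 2 were called, besides Il6, Osm, Stat3, Socs3, Cebpd, Heph and Slc40a1, and the genes most correlated with each member (3) and with their mean profile (10). Of the genes this rule names, 1 is not reported here. Alternatives, given in the closing section, were RLE or total-count scaling, DESeq2 1.42.0, 2 other filters, only the 2 groups compared, a replicate block, each library left out, and treated replicate 2 and young control 1 left out together.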

Additional observations from a re-analysis of the deposited data

How the results depend on the processing

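For the 10 members, log2 fold changes under 17 alternatives moved by no more than the SD between replicates within groups in 488 of 504 cases. Leaving out 1 of 3 libraries can seldom move a group mean that far, so this count says little about stability. No called value changed sign, but uncalled values of Orm2, Cp, Hp, Steap4 and Serpina3n did, each in 1 or 2 alternatives. Counts of calls moved more. For aged against young controls, 424 genes were called, and 73 to 688 with 1 library left out (lowest without aged control 1), 929 with DESeq2 and 1239 with only the 2 groups compared. The members' count of 2 was 0 to 3 with 1 library left out, 5 with DESeq2, 4 with only the 2 groups, 1 with the replicate block, where Orm1 and Serpina3f lost their calls and Serpina3g gained one, and 4 without treated replicate 2 and young control 1. The other acute phase count of 0 was 0 with any 1 library left out and 1 with DESeq2 or without both those libraries. The regulators' count of 0 was 0 to 1 with 1 library left out, 2 with DESeq2, 6 with only the 2 groups and 2 without both libraries. The receptor and metal count of 1 was 0 to 3 with 1 library left out, 0 with RLE scaling, the filter at 1 CPM or the replicate block, 2 with total counts, 3 with DESeq2 or without both libraries, and 5 with only the 2 groups.

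For treated against aged control mice, 1098 genes were called, and 25 to 4092 with 1 library left out (without aged control 2 and without treated replicate 3), 3010 with DESeq2, 178 with only the 2 groups and 317 with the replicate block. The members' count of 0 was 0 to 2 with 1 library left out and 2 with DESeq2. The other acute phase count of 5 was 0 to 12 with 1 library left out, 9 with DESeq2, 3 with no filter, the replicate block or without both libraries, and 2 with only the 2 groups. The regulators' count of 6 was 1 to 20 with 1 library left out, 14 with DESeq2, 10 with the filter at 1 CPM, 1 with only the 2 groups and 2 with the replicate block or without both libraries. The receptor and metal count of 2 was 0 to 7 with 1 library left out and 1 with only the 2 groups.

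For treated against young mice, 4222 genes were called, and 1775 to 6086 with 1 library left out, 1041 with only the 2 groups and 1794 without both libraries. The members' count of 4 was 3 to 6 with 1 library left out and 2 with the filter at 1 CPM, which removes Lcn2 and Saa3. The other acute phase count of 11 was 8 to 14 with 1 library left out, 7 with only the 2 groups and 6 without both libraries. The regulators' count of 22 was 9 to 24, 8 and 10, and the receptor and metal count of 14 was 8 to 16, 7 and 7, in that order. The cause of the other shifts was not tested. Whether the replicate numbers pair the libraries could not be decided with 3 libraries per group. Same-numbered libraries deviated from their group means with correlations of -0.0795 to 0.148, and other pairs with -0.298 to 0.251. Of the 9 libraries, 5 correlated best with a library of their own number. Orm1, Lcn2, Saa3 and Serpina3f rest on few counts in young mice, which limits their fold changes.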
